A study of Gossypium hirsutum with 6 samples.

Results

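The step between 17 and 21 days post-anthesis (dpa) in developing fibers of Upland cotton, Gossypium hirsutum cv. TM1, was described here as the 21 dpa profile minus the 17 dpa profile. Each deposited profile holds 1 value per probe, the log2 ratio of that stage to 5 dpa, so the 5 dpa reference cancels in the difference. A positive difference means a higher transcript level at 21 dpa, and 1 unit on this log2 scale is a 2-fold difference. Of 12263 rows, 12238 carry a cotton fiber EST probe number and 11858 of these have a value at all 6 stages (8, 10, 14, 17, 21 and 24 dpa). These 11858 probes are the members of the comparison. The 21 dpa fibers, the 17 dpa fibers and the 5 dpa reference fibers all came from untreated greenhouse plants of this 1 cultivar, and every sample was total RNA of fiber hybridised to 2-colour oligonucleotide arrays. Each stage has 1 profile, so no difference below has a replicate error or a p-value, and differences of at least 2-fold are counted as a description of these profiles only.

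A cotton fiber is a seed coat epidermal cell that elongates while it builds a thin primary cell wall (PCW), which is rich in pectin and xyloglucan beside cellulose. Elongation then slows and the cell lays down a thick secondary cell wall (SCW) that is almost pure cellulose. Cellulose is made at the plasma membrane by complexes of cellulose synthase (CesA) subunits, and different CesA genes serve the PCW and the SCW. Sucrose synthase is held to supply the UDP-glucose that cellulose synthase consumes. The interval from 17 to 21 dpa lies where both wall programs are known to overlap in this species.

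Control features of the same array, which are not members, were looked at beside the stage labels. FbL2A, a fiber transcript known to accumulate during SCW deposition, had log2 ratios of -0.50, 0.63, 1.42, 1.19, 4.88 and 7.83 at 8, 10, 14, 17, 21 and 24 dpa. Its difference at 21 minus 17 dpa was 3.69. Its signal exceeded the buffer spots in 1 of 2 scanner files of either sample. The 2 files of the 21 dpa sample are the 2 dyes of 1 array, with net signals of 30.9 and 1867. FbL2A was thus bright in 1 dye of that array, although the labels do not settle which stage the dye held. In the 2 files of the 17 dpa sample, which come from different arrays, its net signal was 462 and -26.9. Which stage each of these files holds is likewise not settled. How well the difference was measured therefore cannot be read from these signals, and its size remains uncertain. GhCesA-1, a cellulose synthase feature, ran 2.98, -2.14, -1.70, -1.93, 3.81 and 7.30 over the same stages. Its signal was above the buffer in 1 of 2 files of the 21 dpa sample and 0 of 2 of the 17 dpa sample. No fold can therefore be given for it. GhCesA-2, the other cellulose synthase feature, exceeded the buffer in 12 of 12 files. It had log2 ratios of 0.36 at 21 dpa and 0.54 at 17 dpa, with 1.71 at 24 dpa. Its difference at 21 minus 17 dpa was -0.18, so that this brighter feature did not rise at this step. The 4 chlorophyll a/b-binding features placed on the array to detect leaf RNA differed by 0.03 to 0.38 (log2, 21 minus 17 dpa). Of 5 transgene marker features, which have no target in TM1, 1 was at least 2-fold apart. That feature, aaacC1, differed by -2.57 and exceeded the buffer in 2 of 12 files, which shows the size of difference that a probe at background can give. The marker GFP differed by 0.18 and exceeded the buffer in 11 of 12 files, and GUS and npt-II in 8 each. Signal above the buffer spots is therefore a measure of brightness and is no proof of a transcript.

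Transcript levels of 401 probes (3.38% of 11858) were raised 2-fold or more at 21 dpa relative to 17 dpa, and those of 373 probes (3.15%) were reduced by the same factor, 6.53% in all. The median difference was -0.001, with quartiles of -0.19 and 0.19. The SD was 0.587, and the full range ran from -11.63 to 9.75. Many of the changed probes were dim. A probe was taken as above the buffer in a scanner file when its background-corrected signal exceeded the median of the buffer spots by 3 scaled median absolute deviations. Of the higher probes 60.6%, and of the lower probes 47.5%, were above the buffer in only 0 to 4 of the 12 files. The 10 highest differences, 4.18 to 9.75, belonged to probes above the buffer in 0 to 5 of the 12 files, and the 10 lowest, -11.63 to -4.20, to probes above it in 0 to 8.

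When the probes were placed in 10 classes of equal size by mean signal, the share that was at least 2-fold apart fell from class to class down to the eighth. It was 30.8% in the dimmest class, 13.3% in the next and 0.759% in the eighth, then 2.61% and 2.53% in the 2 brightest classes. The balance of directions also differed along this scale. The 2 dimmest classes held 308 higher and 215 lower probes of 2372, whereas the 2 brightest held 8 higher and 53 lower probes of 2372. Decreases thus outnumbered increases in the brightest classes, and the reverse held in the dimmest.

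**Figure D1:**
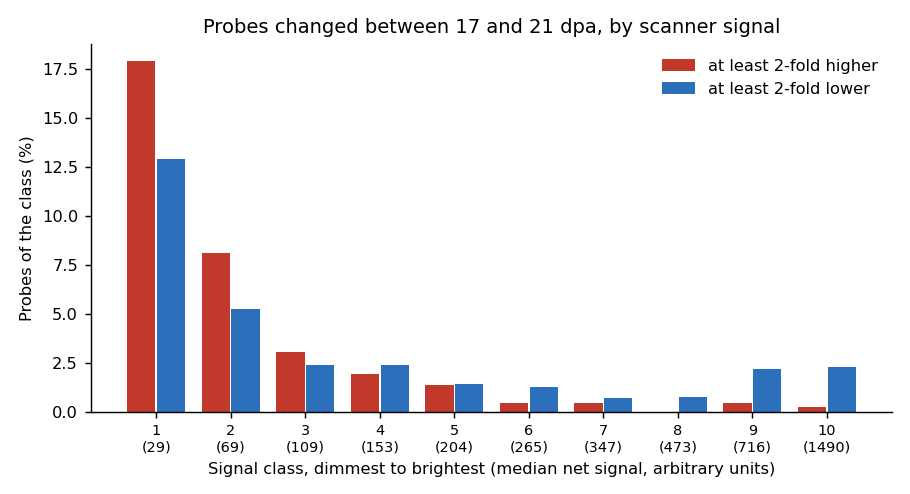
Share of probes (%) at least 2-fold higher (red) or lower (blue) at 21 dpa than at 17 dpa, in 10 classes of mean scanner signal. The dimmest class had 17.9% higher and 12.9% lower, and the brightest 0.253% higher and 2.28% lower.

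Of the 4195 probes above the buffer in all 12 files, 10 (0.238%) passed the 2-fold threshold upward at 21 dpa and 41 (0.977%) downward, 1.22% in all. The median signal of a file lay between 34.4 and 592, lowest in 1 of the 2 files of the 24 dpa sample. The differences of the 4195 probes had an SD of 0.278 and ran from -2.89 to 2.08. This filter also removes a gene that is near background at any 1 stage, as FbL2A was (7 of 12 files), so that it can remove a transcript that first appears with the SCW. Requiring signal only in the 4 files of the 17 and 21 dpa samples kept 6425 probes, with 16 (0.249%) higher and 82 (1.28%) lower, 1.53% in all. This filter has the same limit, and FbL2A would not pass it either. The 2 dyes of an array can hold different stages, so low signal at another stage, such as the 5 dpa reference, can also remove a probe. How far the filters shaped the balance of directions was not tested.

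The repeated measurements give a technical scale for these values. Within a scanner file the 2 spots of a probe differed by a median of 0.16 log2 units in either file of the 21 dpa sample, and by 0.11 and 0.13 in the files of the 17 dpa sample, for probes above the buffer in all 12 files. For the remaining probes the medians were 0.30 and 0.34 at 21 dpa and 0.22 and 0.31 at 17 dpa. A set of 17 probe numbers has a pair of entries each in the profiles. Their differences from 17 to 21 dpa lay a median of 0.14 apart, but 3 of the 17 pairs were 2-fold or more apart, with a largest gap of 2.74. These 3 pairs were all those in which either entry passed 2-fold, and in 0 of the 3 did the other entry repeat it, although all 3 were above the buffer in 12 of 12 files.

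The count at this step was set beside those of the other adjacent stages. Over all probes 5.19% were at least 2-fold apart between 10 and 8 dpa, 2.83% between 14 and 10, 4.57% between 17 and 14, 6.53% between 21 and 17, and 13.4% between 24 and 21 dpa. Among the probes above the buffer in all 12 files, 29 (0.691%) were higher and 15 (0.358%) lower at 10 dpa than at 8 dpa, and 6 (0.143%) and 5 (0.119%) at 14 dpa than at 10 dpa. At 17 dpa 48 (1.14%) were higher and 0 (0%) lower than at 14 dpa, at 21 dpa 10 were higher and 41 lower than at 17 dpa, and at 24 dpa 24 (0.572%) were higher and 39 (0.93%) lower than at 21 dpa. Without the brightness filter higher probes outnumbered lower ones at each of these 3 steps, with 286 and 256 at 17 over 14 dpa, 401 and 373 at 21 over 17 dpa, and 920 and 673 at 24 over 21 dpa. The 2 files of the 21 dpa sample had 9643 and 9479 probes above the buffer, and those of the 17 dpa sample 8350 and 7916. Adjacent steps share a profile, so these counts are not independent of each other. The intervals also differ in length, with 4 days from 17 to 21 dpa and 2 to 4 days for the others.

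**Figure D2:**
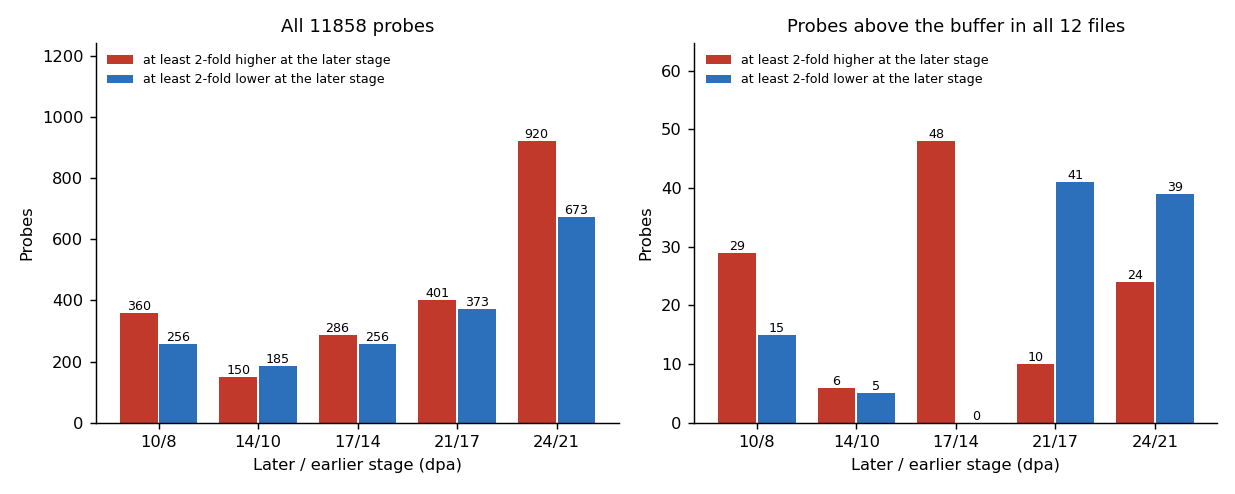
Number of probes at least 2-fold higher (red) or lower (blue) at the later stage of each adjacent pair, for all 11858 probes (left) and for the 4195 above the buffer in all 12 scanner files (right). At 21 over 17 dpa the right panel has 10 higher and 41 lower probes.

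The 41 lower and 10 higher probes that were above the buffer in all 12 files were followed over the whole course. They include the 3 entries above that their partners did not repeat, without which 39 lower and 9 higher remain. The lower group had median log2 ratios to 5 dpa of 0.17, 0.14, 0.11, -0.05, -1.14 and -1.70 at 8, 10, 14, 17, 21 and 24 dpa. This median thus stayed near the 5 dpa level up to 17 dpa. At 21 dpa 24 of the 41 were at least 2-fold below 5 dpa and 2 were above, against 4 below and 11 above at 17 dpa. Over all 4195 probes 156 were below and 179 above at 21 dpa, against 92 below and 154 above at 17 dpa. The values of these 2 stages chose the probes, so their counts are a description only. The higher group had medians of 0.06, 0.24, 0.69, 0.71, 1.86 and 2.14. Of these 10 probes, 9 were at least 2-fold above 5 dpa at 21 dpa, against 3 at 17 dpa.

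A contrast that shares no stage with this step, 24 minus 14 dpa, is placed beside it, although all profiles come from 1 model fit. Of the 41 lower probes, 36 were at least 2-fold lower and 2 at least 2-fold higher at 24 dpa than at 14 dpa. Of the 10 higher probes, 8 were at least 2-fold higher and 0 lower. Without the 3 unrepeated entries these became 36 of 39 lower with 0 higher, and 7 of 9 higher with 0 lower. Over all 4195 such probes 2.6% were higher and 4.1% lower, and over all 11858 probes 9.61% and 8.21%. Of the 148 higher probes above the buffer in 5 to 11 files, 33.8% were at least 2-fold higher and 5.41% lower. Of the 155 lower probes above the buffer in 5 to 11 files, 46.5% were at least 2-fold lower and 11.6% higher. All 6013 probes of that brightness had 10.4% lower and 6.65% higher. The dimmest lower probes behaved otherwise. Of the 177 lower probes that were above the buffer in 0 to 4 files, 17.5% were at least 2-fold lower and 43.5% at least 2-fold higher at 24 dpa than at 14 dpa, where all 1650 probes of that brightness had 10.7% lower and 38.2% higher. Of the 243 higher probes in that class, 48.6% were at least 2-fold higher and 10.3% lower.

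**Figure D3:**
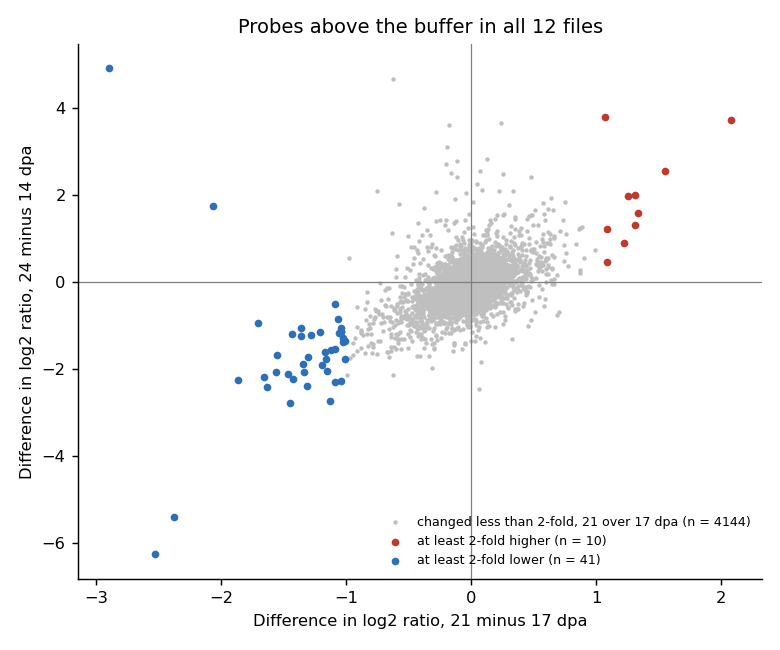
Difference in log2 ratio at 24 minus 14 dpa (vertical) against 21 minus 17 dpa (horizontal) for the 4195 probes above the buffer in all 12 scanner files, 1 point per probe. Of the 41 lower probes (blue) 36 lay at or below -1 on the vertical axis, and of the 10 higher probes (red) 8 lay at or above 1.

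Names were available for 76 measured genes, all from the 125 genes that the study selected on these same samples, so that their changes are not independent evidence of a change at this stage. The 2-fold threshold was passed upward by 3 of the 76 at 21 dpa relative to 17 dpa and downward by 7, 13.2% against 6.53% of all probes. Among the 39 that were above the buffer in all 12 files, 1 was higher and 3 were lower, 10.3% against 1.22%. Of 124 measured genes in the study's selection, named or not, 5 were higher and 9 lower, 11.3%.

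Genes of cellulose synthesis and sucrose supply are described first. The CESA3-like catalytic subunit, whose Arabidopsis relative serves the PCW, had log2 ratios of 0.14 at 21 dpa and 0.11 at 17 dpa, a difference of 0.03, and a second entry of this probe gave 0.16. The KORRIGAN-like endo-1,4-beta-glucanase, a membrane enzyme needed for cellulose assembly in Arabidopsis, had 0.28 and 0.12, a difference of 0.16. Both were close to or below the median gap of 0.14 between repeated entries. As for every gene here, fewer fiber cells of a kind and less RNA per cell cannot be told apart in such bulk samples. The SUS1-like sucrose synthase had log2 ratios of -0.20, -0.55, -1.58, -1.97, -2.85 and -2.68 from 8 to 24 dpa and was 1.84-fold lower at 21 dpa than at 17 dpa (-0.88, second entry -0.82). The SUS4-like sucrose synthase ran -0.85, -0.40, -1.43, -1.48, -2.04 and -2.41, and differed by less (-0.56, second entry -0.62). Neither passed 2-fold, and in both genes both entries were lower at 21 dpa.

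Genes of wall loosening and remodelling did not move in 1 direction. Expansin 1, which loosens the PCW during growth, had log2 ratios of 1.20 at 21 dpa and 1.32 at 17 dpa, and xyloglucan endotransglycosylase, which cuts and rejoins xyloglucan chains, had 1.80 and 1.62. The BGAL13-like beta-galactosidase was 1.90-fold lower, at -0.12 at 21 dpa and 0.80 at 17 dpa. The BGAL8-like beta-galactosidase was 1.59-fold higher, at -0.82 at 21 dpa and -1.49 at 17 dpa. These enzymes remove galactose from cell wall polymers, and the 2 genes lay on opposite sides of 0. The SKU5-like monocopper oxidase, relative of an Arabidopsis protein of directional root growth, had 0.35, 0.01, 0.04, 0.01, -0.73 and -0.63 from 8 to 24 dpa and was 1.67-fold lower. None of the 5 genes passed 2-fold, and their median difference was -0.11.

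Of the lipid and surface genes, 1 of 6 was at least 2-fold higher and 2 were lower, beside 13.2% of all described genes and 6.53% of all probes. The long chain fatty acid elongation enzyme, which extends fatty acids beyond the usual membrane lengths, had log2 ratios of 2.71, 2.32, 2.55, 2.54, 0.88 and 0.37 at 8, 10, 14, 17, 21 and 24 dpa. It was thus held about evenly above the 5 dpa level through 17 dpa, and was 3.16-fold lower at 21 dpa (-1.66). The FAD3-like omega-3 desaturase, which makes linolenic acid in the endoplasmic reticulum, ran 0.49, 0.37, 0.05, -0.01, -2.26 and -3.47 and was 4.77-fold lower (11 of 12 files above the buffer). Lipid transfer protein, one of the small secreted proteins that bind lipids, went the other way. Its values of 0.26, -0.12, 0.92, 1.14, 2.45 and 2.22 put it 2.48-fold higher at 21 dpa than at 17 dpa (1.31). The GDSL-motif lipase was 1.68-fold lower (-1.26 at 21 dpa and -0.51 at 17 dpa). Beta-ketoacyl-CoA synthase, which catalyses the condensing step of very long chain fatty acid synthesis, and the CER1-like protein, named for an Arabidopsis enzyme of cuticular wax, differed by 0.28 and -0.25.

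**Figure D4:**
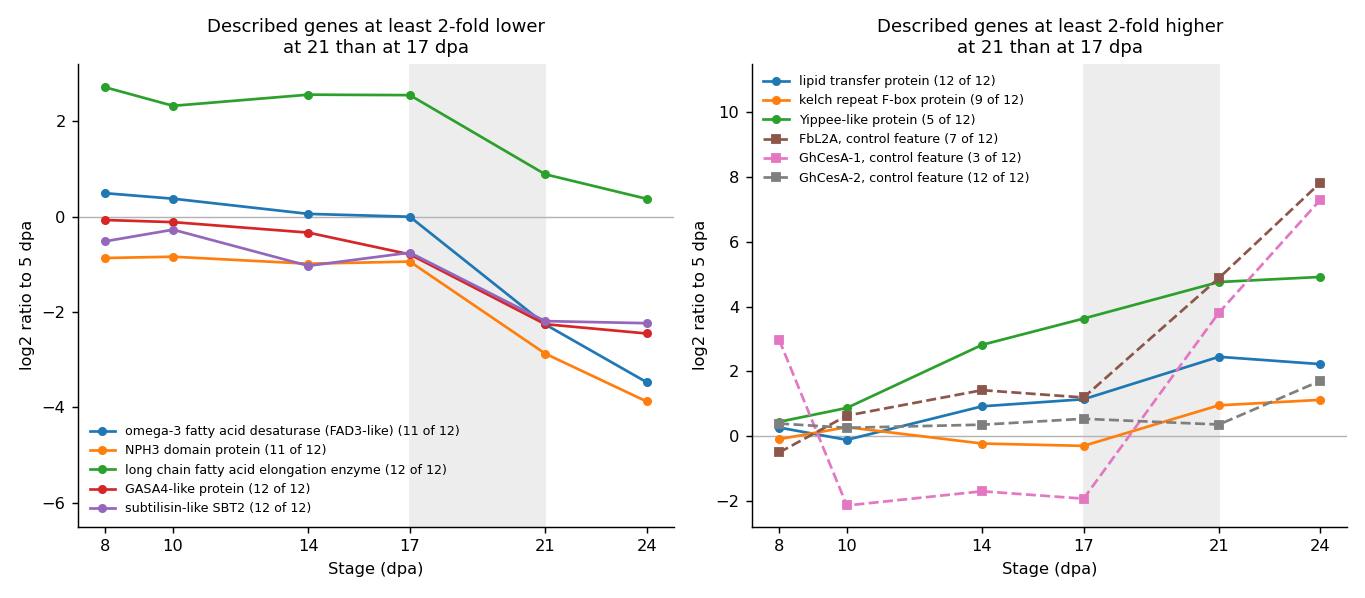
Log2 ratio to 5 dpa by stage for described genes at least 2-fold lower (left, those above the buffer in 11 or 12 files) or higher (right) at 21 dpa than at 17 dpa, with 3 control features dashed; the grey band marks 17 to 21 dpa and brackets give the scanner files above the buffer. The FAD3-like desaturase fell by 2.26 over the band and lipid transfer protein gained 1.31.

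Among secreted and regulatory proteins, the GASA4-like protein, of a family of cysteine-rich peptides regulated by gibberellin in Arabidopsis, had log2 ratios of -0.07, -0.12, -0.34, -0.79, -2.26 and -2.45 from 8 to 24 dpa and was 2.76-fold lower at 21 dpa than at 17 dpa. A second gibberellin-regulated gene had -0.85 at 21 dpa and -0.43 at 17 dpa. The subtilisin-like protease SBT2 had -0.52, -0.28, -1.03, -0.76, -2.19 and -2.23 and was 2.70-fold lower. Both the GASA4-like gene and SBT2 were above the buffer in 12 of 12 files, and their step at 21 dpa was kept at 24 dpa. The NPH3 domain gene, from a family that includes phototropin signalling proteins of Arabidopsis, ran -0.87, -0.84, -0.99, -0.94, -2.87 and -3.87 and was 3.81-fold lower (11 of 12 files). The serine carboxypeptidase II gene was 1.58-fold lower with 6 of 12 files above the buffer, and the C2H2 zinc finger gene 1.52-fold lower with 11 of 12.

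The other genes with large falls were dim. Histone deacetylase 6, an enzyme that removes acetyl groups from proteins, had log2 ratios of 4.11, 4.18, 4.81, 5.56, -4.93 and 5.63 from 8 to 24 dpa, and differed by -10.49 at this step. It was above the buffer in 0 of 12 files and its level therefore was not measured. The RXW8 membrane protein had -1.64 at 21 dpa and 0.71 at 17 dpa, a difference of -2.35, with 3 of 12 files above the buffer. Neither value can carry a statement about the transcript.

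Both ABC transporter probes, of the family of ATP-driven membrane pumps, are assigned to the same EST contig. They may report 1 gene, although they are counted as 2 among the 76. They had -0.89 and -0.60 at 21 dpa, and -0.01 and 0.24 at 17 dpa, and were 1.84-fold and 1.78-fold lower. Their log2 differences thus lay 0.05 apart, although whether the probe sequences overlap is not known. The 3 water channel genes all lay below 0, with differences of -0.45 for the tonoplast channel TIP4-4, -0.20 for PIP2-2 and -0.03 for TIP26, none of them 2-fold. TIP4-4 was still well above its 5 dpa level at 21 dpa (1.68) as it was at 17 dpa (2.13). The cytoskeletal genes stayed within 0.25 of 0. The beta-tubulins, subunits of the microtubules along which cellulose is laid, differed by 0.20 and 0.15, and actin by -0.25.

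Of the 2 other described genes past 2-fold in the upward direction, the kelch repeat F-box gene, from a family that selects proteins for ubiquitination, ran -0.09, 0.28, -0.23, -0.30, 0.95 and 1.12 and was 2.38-fold higher at 21 dpa than at 17 dpa (9 of 12 files). The Yippee-like gene ran 0.44, 0.87, 2.82, 3.63, 4.76 and 4.92 and was 2.19-fold higher, with only 5 of 12 files above the buffer. Under 2-fold came the ATHB13-like homeobox gene at 1.93-fold higher (1.72 at 21 dpa and 0.78 at 17 dpa), a transcription factor of the HD-Zip family. It was above the buffer in only 7 of 12 files. The MS5 family gene was 1.82-fold higher (9 of 12 files), and the mitochondrial integral membrane protein, above the buffer in 12 of 12 files, 1.58-fold higher. Ferritin 3, an iron storage protein, was 1.57-fold higher, at 3.66 at 21 dpa and 3.01 at 17 dpa (9 of 12 files). The zinc ion binding gene differed by 0.58. Glutathione peroxidase, an enzyme that reduces peroxides, differed by 0.56, but its probe was above the buffer in 0 of 12 files. In the same redox list glutathione S-transferase was 1.43-fold lower, at -3.63 at 21 dpa and -3.11 at 17 dpa (10 of 12 files).

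**Figure D5:**
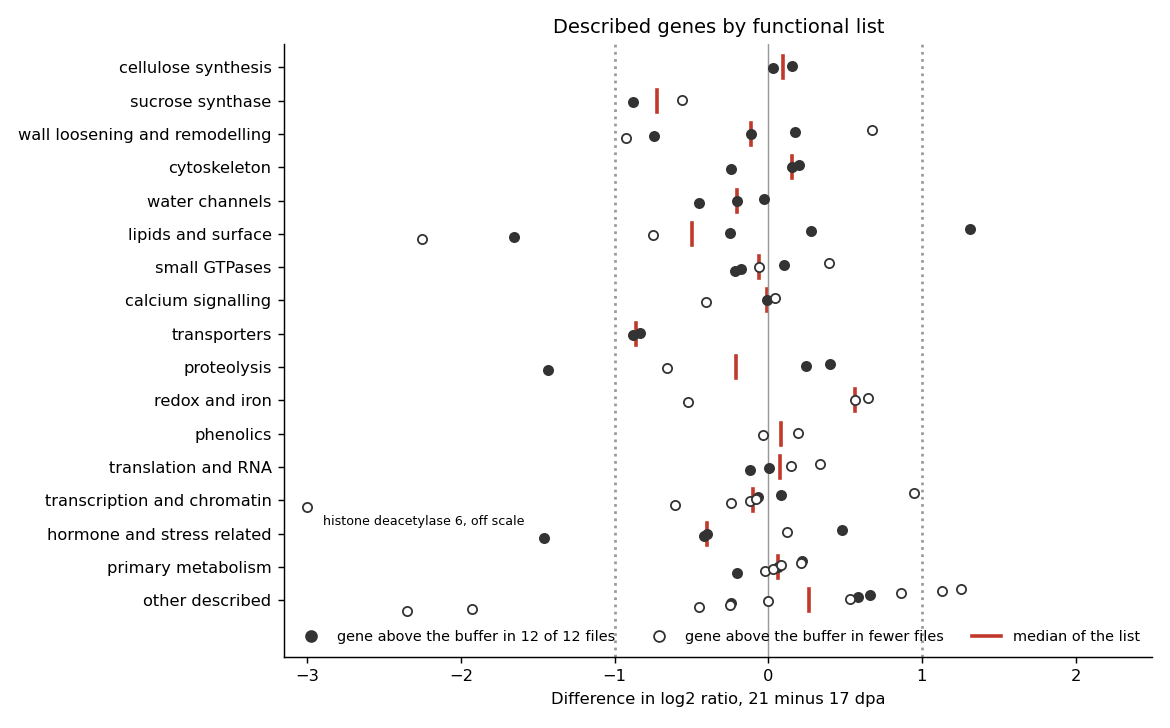
Difference in log2 ratio, 21 minus 17 dpa, of 76 described genes in 17 lists (filled, above the buffer in 12 of 12 scanner files; open, in fewer), with list medians in red and 2-fold lines dotted. Histone deacetylase 6, at -10.49, is drawn at the left edge; 3 genes lie at or beyond the right dotted line and 7 at or beyond the left one.

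A further set of genes was already high at 17 dpa and differed by less than 2-fold from there to 21 dpa. The GTP-binding gene, whose protein family switches vesicle traffic and signalling, had log2 ratios of 0.67 at 14 dpa, 3.29 at 17 dpa and 3.12 at 21 dpa, so that the gain came before the step studied here. Protease P27 had 1.33, 3.36 and 3.60 at 14, 17 and 21 dpa, the MLP28-like ripening-related gene 1.31, 2.79 and 3.27, and cytochrome c oxidase subunit II, of the respiratory chain, 1.42, 3.35 and 3.43. Their differences at 21 minus 17 dpa were 0.24, 0.48 and 0.08. A second probe of the P27 contig gave -0.07, and the other P27 gene 0.40. Cytochrome c oxidase subunit II was above the buffer in only 7 of 12 files, so that its values were less firmly measured. The inositol trisphosphate kinase gene was listed at 6.43 at both stages, but was above the buffer in 0 of 12 files.

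The remaining lists had small differences, not all of them from probes with signal above the buffer. The 4 genes of translation and RNA differed by -0.12 to 0.34, the 5 small GTPase genes by -0.22 to 0.39, the 3 calcium signalling genes by -0.40 to 0.04, the 2 phenolic genes by -0.04 and 0.20, and the 7 genes of primary metabolism by -0.20 to 0.22. None of these 21 genes was 2-fold apart. In the transcription and chromatin list, 6 of the 8 genes lay between -0.60 and 0.09, beside the ATHB13-like gene and histone deacetylase 6 described above.

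Probes without a description made up most of the members. Among those above the buffer in all 12 files, probe GA_10dpa_fiberEST_12702 had log2 ratios of 0.49, 0.28, 1.27, 1.74, 3.29 and 3.82 from 8 to 24 dpa and was 2.93-fold higher at 21 dpa than at 17 dpa. Probe GA_10dpa_fiberEST_09897 had 0.44, 1.60, 2.16, 4.25, 1.72 and -4.11, and was 5.76-fold lower at 21 dpa, the stage after its peak. The largest differences in this set, 2.08 for GA_10dpa_fiberEST_10513 and -2.89 for GA_10dpa_fiberEST_11688, each belonged to 1 of a pair of entries whose partner gave 0.08 and -0.15, so those values did not repeat within the array.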

How the data were processed

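Total RNA of TM1 fiber was hybridised to 2-colour oligonucleotide arrays in a double loop over the stages with dye swaps. The authors fitted the arrays with limma in R and deposited 1 log2 ratio to 5 dpa per probe and stage. They also deposited 12 scanner files from 7 arrays, with spot and background intensity; spot flags were used to leave out bad spots. The labels do not settle which dye held which stage, so intensities served only to grade brightness. On 4 arrays with both dyes under 1 sample (8, 10, 21 and 24 dpa; none for 17 dpa) the size of the log2 ratio followed that stage's deposited profile across probes with absolute r of 0.510 to 0.779 and slopes of 0.384 to 0.855. The log2 base is therefore taken as the likely scale of the deposited values, and fold changes rest on it.

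Differences, counts past 2-fold, medians and ranges were computed with Python 3.11.15, pandas 2.3.3 and numpy 2.4.6, and the counting step was tested on simulated data. With 1 profile per stage no test was run, and the number of arrays limits precision. The members and gene lists were chosen with earlier results of these data known. All 77 genes of the lists could be named (1 has no values), with the 10 highest and 10 lowest always given, and at most 2 undescribed probes in each direction. Gene descriptions were those given by the study, and the available RefSeq gene table matched no probe number. Thresholds of 1.5-fold and 3-fold, brightness filters, centring and repeated entries were tried as alternatives.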

Additional observations from a re-analysis of the deposited data

How the results depend on the processing

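With a threshold of 1.5-fold in place of 2-fold, 928 probes were higher and 882 lower at 21 dpa than at 17 dpa, and with 3-fold 145 and 134. Brightness filters took the counts to 16 higher and 82 lower (buffer median plus 3 scaled median absolute deviations in the 4 files of 17 and 21 dpa), 10 and 41 (the same in all 12 files), and 2 and 3 of 313 probes (buffer mean plus 3 SD in those 4 files). For the other steps the counts at 1.5-fold, at 3-fold and after the filter on 12 files were 1888, 186 and 44 (10 against 8 dpa), 1092, 103 and 11 (14 against 10), 1324, 233 and 48 (17 against 14), and 3209, 733 and 63 (24 against 21). The spread of the difference was 0.278 as a scaled median absolute deviation, and an SD of 0.278 after the filter on 12 files. After that filter 80% of the higher and 87.8% of the lower probes were also 2-fold apart in the same direction at 24 against 14 dpa, where 43.9% and 37.3% were without it. Of the described genes, 8 were higher and 15 lower at 1.5-fold, and 0 were higher and 5 lower at 3-fold. Leaving out the 3 entries that their partners did not repeat, an alternative chosen after seeing the data, gave 9 higher and 39 lower probes after the filter on 12 files, of which 77.8% and 92.3% were also 2-fold apart in the same direction at 24 against 14 dpa.

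Centring each stage on its median moved no named value by more than 0.00438 and gave 398 higher and 376 lower probes, and averaging repeated entries gave 401 and 372. No named difference past 2-fold changed sign, whereas the 60S ribosomal protein L5 value, 0.00205, became -0.00233 with centring. The balance of calls turned under the brightness filters, from more higher to more lower probes. For 2 lists the mean and median differed in sign: the mean of the other described genes was -0.016 where their median was 0.27, and that of the small GTPase genes 0.009 where their median was -0.06. The cause of the changes with brightness was not tested. No replicate could be left out with 1 profile per stage. No paired analysis was possible because each stage has 1 profile and no test.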

Other observations

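Probe GA_10dpa_fiberEST_09897 was not alone in peaking at 17 dpa. The probe next to it in size of fall among those above the buffer in all 12 files also has no description, and had log2 ratios of -0.01, 1.504, 1.99, 4.33, 1.95 and -3.41 from 8 to 24 dpa. Its difference at 21 minus 17 dpa was -2.38. Both probes gained from 8 to 17 dpa and ended far below the 5 dpa level at 24 dpa.

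Of the 24 control features, 7 were at least 2-fold apart at this step, beside 6.53% of all 11858 probes. FbL2A, GhCesA-1 and the transgene marker aaacC1 were among them, above the buffer in 7, 3 and 2 of 12 files. Not all of the 7 were dim. A005178_01 differed by -2.53 and A021047_01 by -1.86, each with 11 of 12 files above the buffer, including all 4 files of the 17 and 21 dpa samples. A003656_01 was higher at 21 dpa, with 10 of 12 files above the buffer. The cause of these differences was not tested.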
